A study of Mus musculus with 6 samples.

Results

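The genes described here are 36 genes of glucose breakdown and of the cellular response to low oxygen, out of 26094 genes in the deposited table, measured in mouse mammary carcinoma cells with and without forced Limch1 expression. They were a fixed list of symbols, chosen with earlier results of these data known. It held 17 genes of glucose uptake, glycolysis and lactate formation, 6 genes of pyruvate use and monocarboxylate export, and 13 other targets of the hypoxia response. All 36 were listed, and 33 reached 1 FPKM (fragments per kilobase of transcript, scaled to library size) in at least 3 of the 6 libraries and were tested with 11842 genes in all. Glycolytic enzymes and other hypoxia targets are treated apart.

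The cells were 4T1, a cell line grown from a mouse mammary tumour and often taken to represent triple-negative disease. In the group called Limch1_OE (3 libraries) they carried the lentiviral vector PLVX-ires-neo with the mouse Limch1 sequence, and in the group called Vector (3 libraries) the same vector without it. In both groups virus was made in HEK293T cells, a human embryonic kidney line, antibiotic selection began 48 h after infection and the medium held 10% serum. The labels name no low-oxygen exposure, no glucose restriction and no drug besides the selection, and the design names stable cells without saying whether they were clones or pools. Whether the 3 libraries of each group stem from separate cultures is also not said, so the p-values cover only variation among these libraries, and that variation may be technical.

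Glycolysis turns glucose into pyruvate in the cytosol. Pyruvate then either enters mitochondria through the pyruvate dehydrogenase complex or becomes lactate, which leaves the cell, and tumour cells often take the lactate route even with oxygen present. When oxygen is scarce, the transcription factor HIF (an oxygen-labile alpha subunit, HIF1A or EPAS1, with the stable partner ARNT) raises most glycolytic genes together with genes of blood vessel growth, mitophagy, collagen modification and its own shut-off. With oxygen present, EGLN prolyl hydroxylases mark the alpha subunit for destruction by VHL.

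Limch1 itself was at 23.96, 23.31 and 25.69 FPKM in Limch1_OE replicates 1 to 3 and at 0.25, 0.15 and 0.1 FPKM in Vector, so each library matched its label. Between 11621 and 11860 genes per library reached 1 FPKM, and the sequencing depth is unknown, so no counting interval is given. Limch1_OE replicate 1 stood apart from the other Limch1_OE libraries on the second principal component, which held 8.98% of the variance. Mitochondrially encoded genes took 8.73, 6.31 and 6.48% of FPKM in Limch1_OE and 5.57, 4.76 and 4.82% in Vector. Of 5 RNAs on the list of RNA quality signs, the nuclear RNAs Malat1 (log2 fold change 0.96) and Neat1 (1.17) and the mitochondrial mt-Nd1 (0.73) and mt-Cytb (1.19) were higher in Limch1_OE, and mt-Co1 (0.11) was not called. The part of RNA quality in the results below was not tested. All 6 epithelial markers on the list reached the test, with Epcam, Cdh1 and Cldn7 lower in Limch1_OE (-0.44, -0.18 and -1.65) and Krt8, Krt18 and Krt14 not called. Of markers of other cell types, 1 of 7 for leukocytes, 1 of 6 for fibroblasts and 0 of 5 for endothelium reached the test, and Ptprc, Col1a1, Dcn and Pecam1 were at or below 0.13 FPKM in each library. Those tested were Cd68, at 23.5 to 35.39 FPKM and 0.31 higher on the log2 scale in Limch1_OE, and Pdgfra, at 1.33 to 1.97 FPKM and not called.

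Glycolysis did not move as a block. Of 33 tested members 19 were called (57.6%; limma, Benjamini-Hochberg adjusted p under 0.05), 11 higher and 8 lower in Limch1_OE. Over all tested genes 34.6% were called, 20.2% higher and 14.4% lower. Because the members were chosen with earlier results of these data known, a higher share among them is not a test of the pathway. By role, 6 of 16 tested genes of glucose uptake and glycolysis were called (37.5%; 4 higher, 2 lower), 4 of 5 genes of pyruvate and lactate handling (2 higher, 2 lower) and 9 of 12 other hypoxia targets (5 higher, 4 lower). The glycolysis share lay near that over all genes. Median log2 fold changes were 0.05, 0.08 and 0.04 in these groups and 0.04 over all tested genes. The direction counts in glycolysis depended on the scaling between libraries: with median-of-ratios scaling 3 glycolysis genes were higher and 4 lower, and over all genes 1900 were higher and 2052 lower, against 2388 and 1706 as deposited. Every fold change given as log2 is on the log2(FPKM + 1) scale, Limch1_OE minus Vector, which understates changes of genes with low values. In bulk RNA, fewer cells that express a gene and less RNA per cell cannot be told apart.

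**Figure D1:**
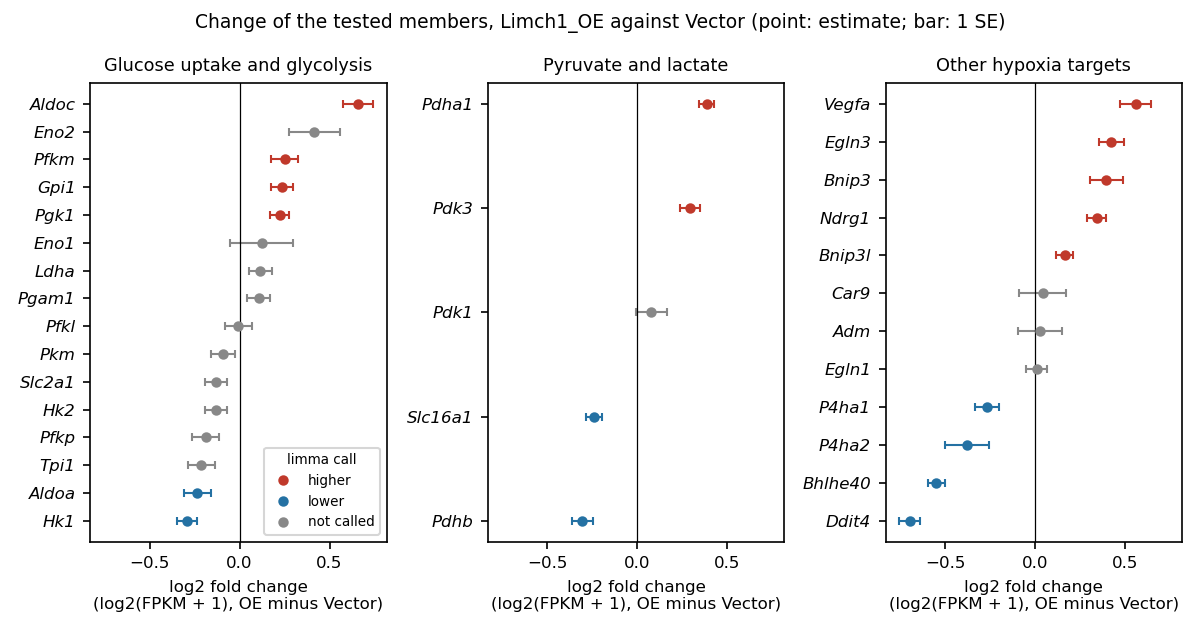
Log2 fold change (log2(FPKM + 1), Limch1_OE minus Vector) of the 33 tested members in 3 panels by role, with each point an estimate and each bar 1 standard error, coloured by the limma call. Glycolysis runs from -0.29 (Hk1) to 0.66 (Aldoc), and the hypoxia targets run from -0.70 (Ddit4) to 0.56 (Vegfa).

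At glucose entry 1 of 3 members was called, near the 34.6% over all tested genes, and it was lower. Slc2a1, the glucose transporter GLUT1, was at 14.38, 16.47 and 15.77 FPKM in Limch1_OE and 17.49, 17.07 and 16.65 in Vector, giving a log2 fold change of -0.13 that was not called (limma adjusted p = 0.139). Hexokinases trap glucose as glucose phosphate, and Hk1 (chr10:62268855-62379908, mm10) was at 41.69, 45.49 and 47.68 FPKM in Limch1_OE and at 55.73, 54.92 and 55.01 in Vector. It fell by 0.29 on the log2 scale (SE 0.06, limma adjusted p = 0.00449), and the highest Limch1_OE library lay below the lowest Vector library. Hk2, the hexokinase most tied to hypoxia and to tumours, was at 21.37, 23.49 and 21.99 FPKM in Limch1_OE and at 23.46, 24.12 and 25.93 in Vector (log2 fold change -0.13, SE 0.06, limma adjusted p = 0.118). Its groups overlapped at Limch1_OE replicate 2 and Vector replicate 1. Of the summed FPKM of both hexokinase genes Hk2 made up 33.2 ± 1.39% in Limch1_OE, against 30.7 ± 1.22% in Vector (SD, n = 3 each; exact permutation p = 0.2).

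The upper steps held 2 of the genes that rose. Gpi1, which converts glucose phosphate to fructose phosphate, was at 157.42, 177.27 and 175.46 FPKM in Limch1_OE and 148.61, 147.85 and 136.42 in Vector. It rose by 0.23 (limma adjusted p = 0.0169). The call ended without Vector replicate 3 (adjusted p = 0.0611) or Limch1_OE replicate 2 (0.0653) and when only the most abundant transcript was used (0.0852). Phosphofructokinase, the committed step, is built from liver (Pfkl), muscle (Pfkm) and platelet (Pfkp) subunits. Pfkl, the most abundant of them, was at 37.23, 44.31 and 42.63 FPKM in Limch1_OE and 43.16, 43.32 and 38.28 in Vector (log2 fold change -0.01, SE 0.08, limma adjusted p = 0.945). Its groups overlapped throughout.

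Pfkm was at 8.97, 10.66 and 10.32 FPKM in Limch1_OE and at 8.08, 8.25 and 8.32 in Vector (log2 fold change 0.25, SE 0.07, limma adjusted p = 0.0287). All Limch1_OE libraries lay above all Vector libraries, but the call did not hold on fewer libraries. The adjusted p was 0.0859, 0.0707 and 0.0645 without Vector replicates 1, 2 and 3, and 0.104 and 0.0714 without Limch1_OE replicates 2 and 3. It was 0.0506 with median-of-ratios scaling and 0.693 with the most abundant transcript. Pfkp was at 23.08, 27.63 and 24.71 FPKM in Limch1_OE and 29.15, 30.31 and 26.83 in Vector (log2 fold change -0.19, SE 0.07, limma adjusted p = 0.0789), and it was called lower without Limch1_OE replicate 2 (adjusted p = 0.0355).

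As shares within each library, which do not depend on the scaling between libraries, the muscle subunit gene took 12.95, 12.91 and 13.29% of phosphofructokinase FPKM in Limch1_OE and 10.05, 10.08 and 11.33% in Vector. The platelet subunit gene took 33.31, 33.45 and 31.82% in Limch1_OE and 36.26, 37.02 and 36.54% in Vector. Neither pair of groups overlapped. The exact permutation test gave p = 0.1 for each, the smallest that 3 libraries against 3 allow, and 0.271 after adjustment over the 23 shares of 9 gene families compared.

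**Figure D2:**
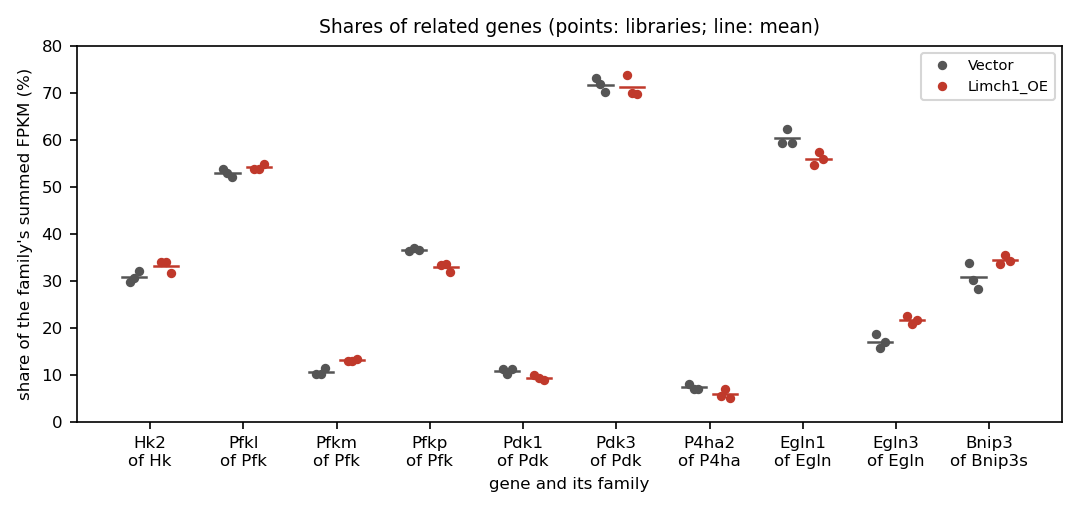
Share of related genes (%) in the summed FPKM of their family, with a point for each library and a line at the group mean, Vector in grey and Limch1_OE in red. Pfkm and Egln3 lie higher in every Limch1_OE library than in any Vector library, Pfkp, Pdk1 and Egln1 lower, and the shares of Hk2, Pfkl, Pdk3, P4ha2 and Bnip3 overlap between the groups.

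The aldolases, which split fructose bisphosphate, moved in opposite directions. Aldoa (chr7:126795234-126800751), the main form, was at 394.67, 473.2 and 470.33 FPKM in Limch1_OE and 532.53, 537.47 and 500.56 in Vector (log2 fold change -0.23, SE 0.08, limma adjusted p = 0.0394). Its groups did not overlap, but the call ended without Vector replicate 1 (0.111), replicate 2 (0.113) or replicate 3 (0.0574), without the intensity trend in the variance (0.0644) and with the most abundant transcript (0.148). With the most abundant transcript the log2 fold change of Aldoa was still -0.23. Aldoc (chr11:78322968-78327781), the brain form and a HIF target, was at 3.98, 4.72 and 4.36 FPKM in Limch1_OE and 2.48, 2.44 and 2.25 in Vector (log2 fold change 0.66, SE 0.09, limma adjusted p = 0.000656). It had the highest fold change of all 33 tested members and was 1.82 times as high by mean FPKM. Yet of the FPKM of both aldolase genes it made up only 0.968 ± 0.0433% in Limch1_OE, against 0.454 ± 0.00829% in Vector (SD, n = 3 each). A second gene identifier that also carries the symbol Aldoa was at 3.87 to 5.13 FPKM and was not called.

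Of the lower steps, Pgk1, the first enzyme to yield ATP and a classic HIF target on the X chromosome, was at 285.19, 319.25 and 311.44 FPKM in Limch1_OE and 259.43, 256.23 and 267.56 in Vector. It rose by 0.22 (limma adjusted p = 0.0131), with no overlap between groups, and the call ended without Limch1_OE replicate 2 (0.0540). Tpi1, which interconverts the triose phosphates, had a log2 fold change of -0.21 with an adjusted p of 0.0538. It was called lower without Limch1_OE replicate 3 (0.0252) and with median-of-ratios scaling (0.0324). A retained-intron transcript, Tpi1-204, made up 69.5% of its FPKM, so the sum does not describe the coding mRNA alone. The principal coding transcript Tpi1-205 was at 109.73, 25.75 and 27.92 FPKM in Limch1_OE and 29.54, 32.14 and 28.91 in Vector, high in Limch1_OE replicate 1 alone. Pgam1 (phosphoglycerate mutase) had a log2 fold change of 0.11 (adjusted p = 0.225), and it was called higher without Limch1_OE replicate 1 (0.0337).

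Enolase and pyruvate kinase, the last steps before pyruvate, did not pass the test. Eno1, the ubiquitous enolase, was at 429.79, 476.26 and 685.69 FPKM in Limch1_OE and 429.67, 586.11 and 431.02 in Vector (log2 fold change 0.12, SE 0.18, limma adjusted p = 0.619). One library in each group stood far above the others. Both high values came from a short coding transcript of 773 bases, Eno1-205, listed at 300.71 FPKM in Limch1_OE replicate 3, at 244.27 in Vector replicate 2 and at 0 in the other 4 libraries. The principal transcript Eno1-202 was at 422.35, 468.21 and 376.28 FPKM in Limch1_OE and at 421.2, 334.73 and 423.1 in Vector, lowest of its group in exactly the library with the short transcript. Eno1b, a near-identical copy of Eno1 that could share its reads, was listed at 165.13 to 206.37 FPKM. Eno2, the neuronal enolase and a HIF target, was at 1.52, 1.57 and 1.47 FPKM in Limch1_OE and 0.84, 1.33 and 0.57 in Vector (log2 fold change 0.42, SE 0.14, limma adjusted p = 0.0522). It entered the test through its 3 Limch1_OE libraries, and it was called higher without Vector replicate 2 (0.0131).

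**Figure D3:**
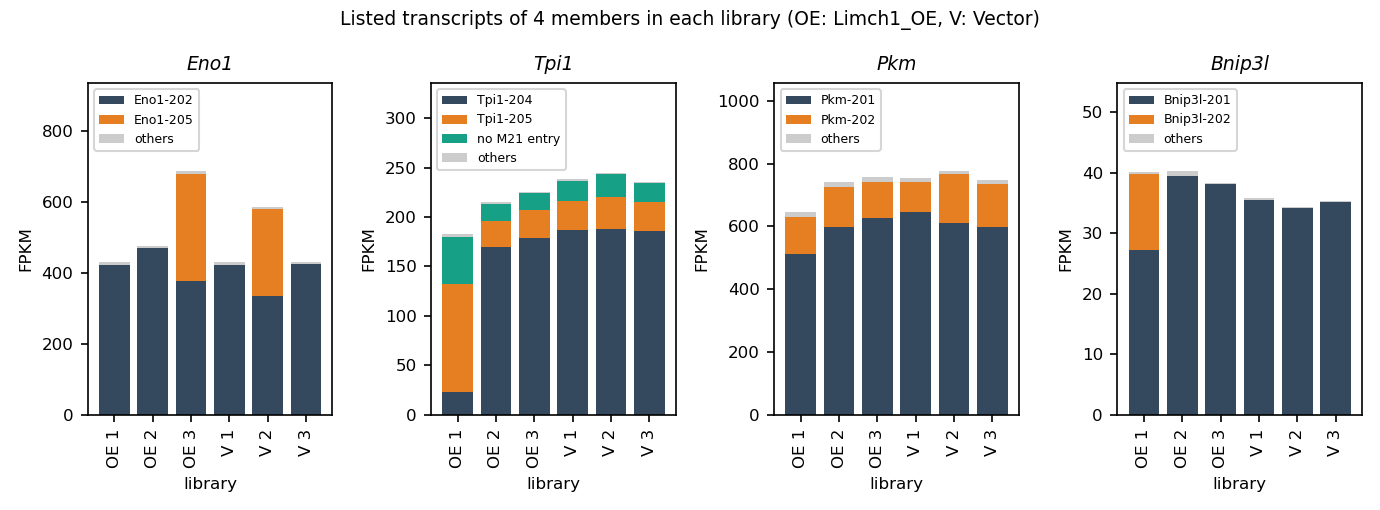
Stacked FPKM of the listed transcripts of Eno1, Tpi1, Pkm and Bnip3l in each library. Eno1-205 appears in Limch1_OE replicate 3 and Vector replicate 2 only, and in Limch1_OE replicate 1 the transcripts that make up Tpi1 and Bnip3l differ from the other 5 libraries, while Pkm-201 holds most of Pkm in each library.

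Pkm, pyruvate kinase of muscle and most tumours, was at 644.61, 741.18 and 756.27 FPKM in Limch1_OE and 755.25, 776.55 and 748.43 in Vector (log2 fold change -0.09, adjusted p = 0.314), and it was called lower with quantile normalization (adjusted p = 0.0174). Its product depends on which of a pair of mutually exclusive exons is spliced in: the upstream exon gives PKM1, typical of muscle and brain, and the downstream exon gives PKM2, typical of proliferating and tumour cells. Both exons have 167 bases and differ at 64 of them (61.7% identical). They are shown because the transcripts that carry them can be told apart by these bases, which are in capitals (GENCODE M21, mm10, plus strand).
Upstream exon, Pkm-202 (chr9:59675029-59675195): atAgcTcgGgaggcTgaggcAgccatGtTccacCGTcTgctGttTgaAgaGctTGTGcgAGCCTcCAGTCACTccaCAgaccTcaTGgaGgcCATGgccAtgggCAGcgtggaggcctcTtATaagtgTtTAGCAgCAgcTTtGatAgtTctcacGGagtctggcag
Downstream exon, Pkm-201 (chr9:59675568-59675734): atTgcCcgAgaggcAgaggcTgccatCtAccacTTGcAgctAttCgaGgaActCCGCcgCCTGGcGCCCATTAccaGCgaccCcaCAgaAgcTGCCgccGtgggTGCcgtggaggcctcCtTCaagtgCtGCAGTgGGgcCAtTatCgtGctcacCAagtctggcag

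The transcript with the downstream exon, Pkm-201, held 81.2, 82.4 and 84.5% of the summed FPKM of both transcripts in Limch1_OE and 87.0, 79.9 and 81.4% in Vector. The means were 82.7 ± 1.65% and 82.8 ± 3.75% (SD, n = 3 each; exact permutation p = 1), and the groups overlapped. At lactate formation, the end of the pathway, no member was called. Ldha, the lactate dehydrogenase subunit that HIF induces, was at 299.9, 342.53 and 354.84 FPKM in Limch1_OE and 306.46, 309.68 and 301.51 in Vector (log2 fold change 0.12, SE 0.06, limma adjusted p = 0.198). It was called higher without Limch1_OE replicate 1 (adjusted p = 0.0116). Ldhb, the subunit typical of heart, was between 0.1 and 0.49 FPKM, too low to be tested, and its annotated principal transcript was not among those listed.

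Limch1_OE replicate 1 gave the lowest value of its group in all 14 glycolysis members that averaged at least 5 FPKM. In Vector the lowest value fell to replicate 1 in 3 of these genes, to replicate 2 in 2 and to replicate 3 in 9. These 14 genes, leaving out Eno1, summed to 2309.7, 2656.7 and 2689.7 FPKM in Limch1_OE and to 2625.7, 2653.3 and 2554.6 FPKM in Vector. The low sum was that of Limch1_OE replicate 1 alone. This was also the library with the highest mitochondrial share (8.73%); the part of that share in the low sum was not tested. Without this library 8 glycolysis members were called (6 higher, 2 lower), and without Vector replicate 3 there were 3 (2 higher, 1 lower). Without Limch1_OE replicate 2 there were 4, of which 1 was higher and 3 were lower, so that the balance of directions in glycolysis also turned on this library.

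**Figure D4:**
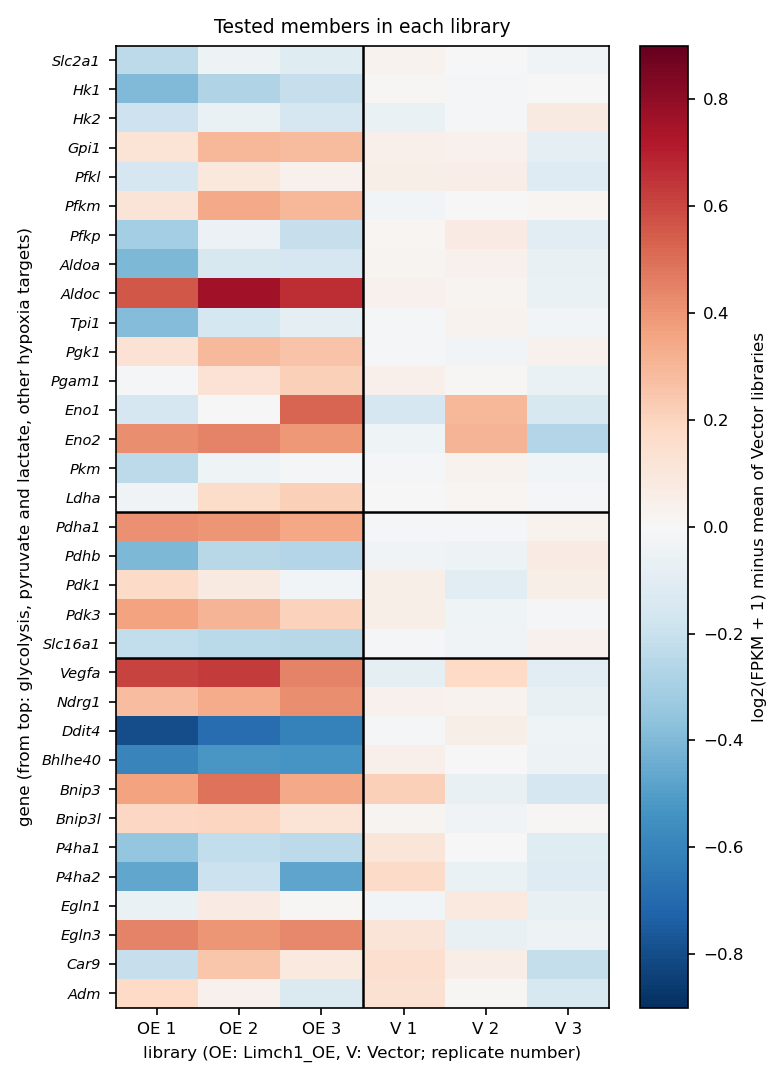
Colour map of the 33 tested members (rows, by role) in the 6 libraries (columns), as log2(FPKM + 1) minus the mean of the Vector libraries. In the glycolysis block the first Limch1_OE column is bluer than the other 2, whereas Aldoc, Pdha1, Pdk3, Vegfa and Egln3 are red and Ddit4 and Bhlhe40 blue in each Limch1_OE column.

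At the entry of pyruvate into mitochondria, genes of a single enzyme moved apart. Pyruvate dehydrogenase E1 is a tetramer of alpha and beta subunits, encoded by the X-linked Pdha1 (chrX:160122209-160138413) and by Pdhb (chr14:8165996-8173025). Pdha1 was at 109.3, 107.81 and 104.51 FPKM in Limch1_OE and at 80.86, 80.89 and 83.65 in Vector (log2 fold change 0.39, SE 0.04, limma adjusted p = 0.000266). Pdhb was at 50.22, 55.89 and 55.31 FPKM in Limch1_OE and at 65.26, 64.64 and 70.29 in Vector (log2 fold change -0.31, SE 0.06, limma adjusted p = 0.00433). Neither gene's groups overlapped, and each kept its call under all 15 alternative settings. The ratio of Pdha1 to Pdhb, free of the scaling between libraries, was 2.18, 1.93 and 1.89 in Limch1_OE and 1.24, 1.25 and 1.19 in Vector (exact permutation p = 0.1, the smallest possible).

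Of 9 further tested genes of this complex, its kinases, its phosphatases and the mitochondrial pyruvate carrier, 1 was called (34.6% over all tested genes): Pdk2, a kinase that switches the complex off, rose by 0.41 (limma adjusted p = 0.0137). That call ended without Vector replicate 1 (0.0504) or Limch1_OE replicate 2 (0.0534), with the most abundant transcript (0.0639) and with no filter on low values (0.0592). Pdk1, the kinase that HIF induces to hold pyruvate out of mitochondria, was at 3.98, 3.69 and 3.36 FPKM in Limch1_OE and 3.58, 3.12 and 3.59 in Vector (log2 fold change 0.08, SE 0.09, limma adjusted p = 0.525). Pdk3, also X-linked and the most abundant of these kinases here, was at 29.37, 28.1 and 26.24 FPKM in Limch1_OE and 23.44, 21.91 and 22.39 in Vector (log2 fold change 0.29, SE 0.06, limma adjusted p = 0.00517), with no overlap. Of the summed Pdk1, Pdk2 and Pdk3 FPKM, Pdk3 took 71.1 ± 2.28% in Limch1_OE and 71.7 ± 1.53% in Vector, and Pdk1 took 9.36 ± 0.559% and 10.9 ± 0.565% (SD, n = 3 each; exact permutation p = 0.8 and 0.1).

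Lactate leaves cells through monocarboxylate transporters. Slc16a1 (MCT1, which carries lactate in either direction) was at 36.58, 35.96 and 35.72 FPKM in Limch1_OE and 42.48, 41.76 and 44.03 in Vector, and it fell by 0.24 (limma adjusted p = 0.00433) with no overlap. Slc16a3 (MCT4, the exporter that HIF induces) was listed at no more than 0.06 FPKM in any library and could not be tested. For Slc16a3 only 1 of its 3 annotated principal transcripts was listed, so its sum can miss part of the gene.

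Among the other hypoxia targets the directions were mixed. Vegfa (chr17:46016993-46032369), the vessel growth factor, was at 23.65, 24 and 20.98 FPKM in Limch1_OE and at 14.28, 17.26 and 14.12 in Vector. It rose by 0.56 (SE 0.09, limma adjusted p = 0.0016), and the lowest Limch1_OE library stood above the highest Vector library. Its annotated principal transcript was not listed, and the coding transcript Vegfa-202 made up 71.8% of its FPKM. Ndrg1 (chr15:66929318-66969640), a stress and differentiation gene used as a hypoxia marker, was at 265.65, 276.36 and 292.53 FPKM in Limch1_OE and at 224.69, 223.59 and 208.78 in Vector (log2 fold change 0.34, SE 0.05, limma adjusted p = 0.00181). Its groups did not overlap.

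The smallest adjusted p-values among the members belonged to decreases of 2 stress-response genes. Ddit4 (chr10:59949669-59951834; REDD1, which restrains mTORC1 in hypoxia) was at 51.87, 56.1 and 59.45 FPKM in Limch1_OE and at 89.72, 94.54 and 88.69 in Vector. It fell by 0.70 (SE 0.06, limma adjusted p = 4.73e-05), a level 1.63 times as high in Vector by mean FPKM. Bhlhe40 (chr6:108660629-108666925; DEC1, a transcriptional repressor of the circadian clock and the hypoxia response) was at 87.54, 91.95 and 91.27 FPKM in Limch1_OE and at 137.04, 132.36 and 128.1 in Vector. It fell by 0.55 (SE 0.05, limma adjusted p = 4.84e-05). In each gene the 3 Limch1_OE libraries lay well below the 3 Vector libraries, and both kept their calls under all 15 alternatives. Of 6 tested partners in mTORC1 restraint and energy stress (Sesn1, Sesn2, Sesn3, Tsc1, Tsc2 and Txnip), 1 was called (16.7%, against 34.6% over all tested genes). This was Txnip, which limits glucose uptake. It was at 138.3, 153.31 and 155.68 FPKM in Limch1_OE and 242.64, 255.39 and 247.52 in Vector, a fall of 0.73 (limma adjusted p = 2.4e-05).

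The mitophagy receptors rose. Bnip3 (chr7:138890836-138909519) was at 20.25, 22.15 and 19.89 FPKM in Limch1_OE and 18.15, 14.8 and 13.88 in Vector (log2 fold change 0.40, SE 0.09, limma adjusted p = 0.0117). Vector replicate 1 came closest to the Limch1_OE libraries without reaching them, and the call ended with the most abundant transcript (0.0586) and with no filter on low values (0.0550). The log2 fold change of Bnip3 hardly moved in these settings (0.394 and 0.397). Bnip3l (NIX) was at 40.09, 40.22 and 38.27 FPKM in Limch1_OE and 35.81, 34.27 and 35.33 in Vector (log2 fold change 0.17, SE 0.05, limma adjusted p = 0.0241). In Limch1_OE replicate 1 its transcript Bnip3l-202 was listed at 12.59 FPKM, against 0.01 or less elsewhere. With the most abundant transcript alone Bnip3l stood at -0.02. Its call also ended without Vector replicates 1, 2 or 3 (0.0569, 0.0854 and 0.0576), without Limch1_OE replicate 2 (0.0842) and with median-of-ratios scaling (0.0617).

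The collagen prolyl hydroxylases, whose catalytic subunits P4ha1 and P4ha2 stabilise the collagen helix, were lower. P4ha1 was at 18.56, 20.41 and 20.2 FPKM in Limch1_OE and 25.85, 23.97 and 22.1 in Vector (log2 fold change -0.27, SE 0.07, limma adjusted p = 0.0164). P4ha2 was at 1.09, 1.53 and 1.08 FPKM in Limch1_OE and 2.26, 1.78 and 1.67 in Vector (log2 fold change -0.38, SE 0.12, limma adjusted p = 0.0400). Neither gene's groups overlapped. The P4ha1 call ended without Vector replicate 1 (0.0637) and with the most abundant transcript (0.252). The P4ha2 call ended without Vector replicates 1, 2 or 3 (0.135, 0.0712 and 0.0509), without Limch1_OE replicates 1 or 3 (0.104 and 0.103) and with no filter on low values (0.134).

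EGLN enzymes tag HIF alpha for destruction, and Egln3 is itself strongly induced by HIF. Of the 2 EGLN members 1 was called higher, against 20.2% of all tested genes. Egln1 was at 28.46, 31.21 and 29.88 FPKM in Limch1_OE and 29.12, 31.64 and 28.28 in Vector (log2 fold change 0.01, SE 0.06, limma adjusted p = 0.926), with full overlap. Egln3 (chr12:54178981-54203860) was at 11.73, 11.35 and 11.61 FPKM in Limch1_OE and 9.13, 7.91 and 8.07 in Vector (log2 fold change 0.43, SE 0.07, limma adjusted p = 0.00198), with none. Egln3 made up 22.51, 20.82 and 21.73% of the summed FPKM of Egln1, Egln2 and Egln3 in Limch1_OE and 18.56, 15.58 and 16.91% in Vector (exact permutation p = 0.1). Car9, the carbonic anhydrase often read as a hypoxia marker on tumours, was at 6.15, 8.81 and 7.78 FPKM in Limch1_OE and 8.16, 7.62 and 6.13 in Vector (log2 fold change 0.04, limma adjusted p = 0.823). Adm, encoding the vasodilator adrenomedullin, was at 0.79 to 1.24 FPKM over the 6 libraries with a log2 fold change of 0.03 (adjusted p = 0.880). Ankrd37, an ankyrin-repeat HIF target, was at 0.78 to 1.25 FPKM and missed the filter for testing.

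The HIF pathway itself was read from a separate list. Of 14 tested genes 3 were called (21.4%, against 34.6% over all tested genes), each higher. Hif1a was at 51.08, 47.41 and 43.45 FPKM in Limch1_OE and 35.44, 36.58 and 35.55 in Vector (log2 fold change 0.39, SE 0.06, limma adjusted p = 0.00196), without overlap, and its call ended when only the most abundant transcript was used (0.209). Cited2, which competes with HIF for its coactivators, rose by 0.28, and the elongin subunit gene Eloc, part of the VHL ligase, rose by 0.32. The Eloc call ended without Vector replicates 1 or 2 (0.0941 and 0.0803) and without Limch1_OE replicates 1 or 2 (0.0761 and 0.0792). It also ended with no filter on low values (0.103) and with the replicate block (0.056). Arnt and Vhl both changed by -0.09 and were not called (adjusted p = 0.225 and 0.380), and Epas1 was listed at 0 in all 6 libraries. These are mRNA levels, and HIF1A is controlled mainly at the protein level, which was not analysed here.

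Of 28 further tested hypoxia targets that are no members, 13 were called (46.4%, against 34.6% over all tested genes), 5 higher and 8 lower. This list, too, was chosen with earlier results of these data known. Among the called genes were Edn1 (endothelin precursor, 1.21), Nos2 (inducible nitric oxide synthase, -0.86) and Hilpda (lipid droplet protein, -0.58). They were followed by Plaur (urokinase receptor, -0.47), Hmox1 (heme oxygenase, -0.47), Kdm4b (histone demethylase, 0.45) and Car12 (carbonic anhydrase, -0.42). Edn1 was at 15.74, 14.7 and 16.47 FPKM in Limch1_OE and at 5.75, 6.51 and 6.34 in Vector, without overlap. These 7 genes kept direction and call under all 15 alternatives.

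Of 12 further tested genes of glycolysis and its control none was called by limma, against 34.6% over all tested genes. An unadjusted limma p under 0.05 was reached by 5 of them (Bpgm, Eno3, Pfkfb3, Tigar and Bsg, named after their values were seen). The share of all tested genes under that unadjusted threshold was not computed, but it is at least the 34.6% called after adjustment. The count of 5 is therefore not read as a result about this list. Gapdh, also on this list, was not one of those 5. Its listed transcripts summed to 8.48, 8.35 and 9.04 FPKM in Limch1_OE and 9.57, 9.39 and 19.92 in Vector (log2 fold change -0.46, limma adjusted p = 0.160). Of its 2 annotated principal transcripts 1 was listed, and a retained-intron transcript, Gapdh-213, made up 76.9% of its FPKM, so these values do not describe the full Gapdh mRNA. In the pentose phosphate pathway, which branches off glucose phosphate, 3 of 8 tested genes were called (37.5%, near the 34.6% over all tested genes). Pgls (-0.66) and Rpia (-0.22) fell, and Taldo1 (0.20) rose. The Pgls call ended when only the most abundant transcript was used (0.0694) and with no filter on low values (0.0746). The Taldo1 call ended without Vector replicates 1 or 2 (0.0850 and 0.0743), without Limch1_OE replicates 2 or 3 (0.0875 and 0.0666) and with median-of-ratios scaling (0.0595). It also ended with the most abundant transcript (0.0797), with no filter on low values (0.0652) and without the intensity trend (0.0513).

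Chromosomes 7, 10 and X each held 3 called members, all higher on X and all lower on 10. On chromosome 7 the directions were mixed, with Gpi1 (0.23) and Bnip3 (0.40) higher, Aldoa (-0.23) lower, and Ldha and Adm not called. Of the 883 tested genes there, 22.4% were called higher and 12.5% lower. The 3 X-linked members, Pgk1 (0.22), Pdk3 (0.29) and Pdha1 (0.39), were all called higher. The X chromosome also had the highest median log2 fold change of the 20 chromosomes, 0.17 over 360 tested genes, of which 40.0% were called higher and 6.11% lower. Chromosome 6, which holds Hk2, Tpi1, Eno2 and Bhlhe40, had the lowest median (-0.09), with 6.28% higher and 29.1% lower over 557 genes. On chromosome 10 the members Hk1, Ddit4 and P4ha1 were called lower and Pfkl was not called. The median there was -0.04 over 549 genes, of which 9.47% were called higher and 21.3% lower. The fold changes of Pgk1 and Pdk3 lay between the quartiles of X-linked genes, and that of Pdha1 lay above the upper quartile of 0.32.

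**Figure D5:**
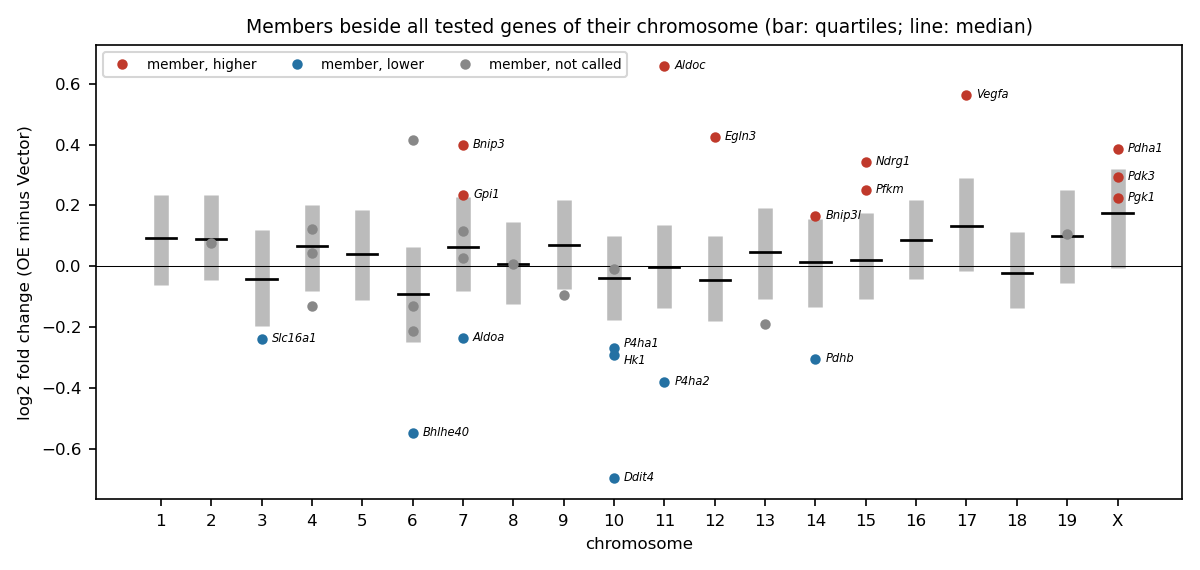
Log2 fold change of each tested member (points, coloured by call, called members named) by chromosome, over the quartiles (grey bars) and median (black line) of all tested genes of that chromosome. Ddit4, Bhlhe40, Vegfa, Aldoc and Egln3 lie outside the quartiles of their chromosomes, whereas Pgk1 and Pdk3 lie inside those of X.

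HIF binds the letters ACGTG or GCGTG, the core of the hypoxia response element, so the windows of 250 bases before RefSeq transcription starts (GRCm38.p6) were searched for either word on either strand, where they read CACGT or CACGC. The palindrome CACGTG, which is also a binding word for other factors, holds a match on each strand. Of the 36 members 33 had an entry, and Ndrg1, Bhlhe40 and Bnip3l had none. A match was present in at least 1 window in 30 of the 33 (90.9%), against 41.5% of all 27025 genes. By window it was 37 of 46 (80.4%) against 38.6% of 32851, but member windows were richer in G and C (median 61.6% against 52.4%). Of all windows at or above the member median 64.9% held a match. Those windows were richer still in G and C (median 68.0%), so they are not matched to the member windows. The match did not separate the directions: it was present in 8 of 9 members that rose, 7 of 7 that fell and 12 of 14 tested but not called.

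The windows of the called hypoxia targets with a single entry are shown 5′ to 3′ on the gene's strand, since they pair genes that rose (Bnip3, Egln3) with genes that fell (Ddit4, P4ha1, P4ha2), with each match in capitals. Bases that GENCODE M21 places in an exon were left off, so Ddit4 ends 65 and Bnip3 14 bases before the RefSeq start.
Bnip3 (chr7:138909520-138909756, minus strand, higher): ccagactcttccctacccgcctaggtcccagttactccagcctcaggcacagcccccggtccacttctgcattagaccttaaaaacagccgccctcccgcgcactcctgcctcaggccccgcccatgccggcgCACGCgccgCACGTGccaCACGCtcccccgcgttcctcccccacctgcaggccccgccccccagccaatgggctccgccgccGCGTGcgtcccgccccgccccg
Egln3 (chr12:54203875-54204124, minus strand, higher): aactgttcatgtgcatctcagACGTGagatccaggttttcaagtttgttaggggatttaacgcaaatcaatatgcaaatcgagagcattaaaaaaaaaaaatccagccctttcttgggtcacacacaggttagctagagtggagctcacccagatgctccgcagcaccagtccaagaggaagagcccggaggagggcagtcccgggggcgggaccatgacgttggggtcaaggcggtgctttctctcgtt
Ddit4 (chr10:59951835-59952020, minus strand, lower): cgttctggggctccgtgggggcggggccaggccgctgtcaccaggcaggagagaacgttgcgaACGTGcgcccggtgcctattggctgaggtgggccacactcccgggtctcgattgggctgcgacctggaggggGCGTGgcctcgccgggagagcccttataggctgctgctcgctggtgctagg
P4ha1 (chr10:59323046-59323295, plus strand, lower): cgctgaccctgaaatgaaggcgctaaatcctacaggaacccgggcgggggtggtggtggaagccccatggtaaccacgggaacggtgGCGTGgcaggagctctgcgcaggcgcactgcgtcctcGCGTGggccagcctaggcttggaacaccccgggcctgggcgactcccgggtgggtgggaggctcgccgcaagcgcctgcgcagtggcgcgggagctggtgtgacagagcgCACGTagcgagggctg
P4ha2 (chr11:54100674-54100923, plus strand, lower): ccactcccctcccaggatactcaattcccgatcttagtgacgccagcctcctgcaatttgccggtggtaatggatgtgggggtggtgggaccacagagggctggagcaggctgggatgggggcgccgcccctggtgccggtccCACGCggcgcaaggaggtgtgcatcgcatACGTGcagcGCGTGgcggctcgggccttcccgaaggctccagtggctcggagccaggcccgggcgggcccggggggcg

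Bnip3, which rose, held 5 matches in the printed bases, among them a CACGTG palindrome, and Egln3, which also rose, held 1. Ddit4, which fell, held 2, and P4ha1 and P4ha2, which fell, held 3 each. A match is a description of these letters and was not tied to binding in these cells.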

How the data were processed

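RNA sequencing libraries of 6 samples were compared, 3 Limch1_OE and 3 Vector. Groups and replicate numbers came from the sample titles, because another label counts up the gene and cell line names from sample to sample. The authors deposited FPKM per transcript. Per the submitters' processing notes the tools included StringTie 2.2.1, featureCounts 2.0.1, STAR 2.7.10 and fastp 0.23.2, and the build was mm10. Not given in the sources used here are their order, the annotation release, strand use and the treatment of multi-mapping reads.

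A gene's value was the sum over its listed transcripts (77865 in all); the plan had assumed values by gene. GENCODE M21 (mm10) gave symbols and coordinates for 26033 of 26094 identifiers, and RefSeq gave the promoters. Not all annotated transcripts are listed: 32 of 36 members had every principal transcript. No counts are listed, so no count test was run. Genes with at least 1 FPKM in 3 libraries were tested with limma 3.58.1 in R 4.3.3 (eBayes with intensity trend) on log2(FPKM + 1), two-sided, at a threshold of 0.05 after Benjamini-Hochberg adjustment over all genes tested. The procedure was tested on simulated data. For ratios and shares, group means were compared with an exact permutation test (two-sided).

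All members are named. All 6 values are given for called members that averaged 5 FPKM or more and had an absolute log2 fold change of at least 0.3, and for isozyme families, and for further members where a library decided a call. From each other list at most 8 called genes are named, with Hif1a, Arnt, Vhl, Gapdh and Limch1. Of these, 1 gene that this rule names is not reported here. The members and lists were chosen with earlier results of these data known. Alternatives covered the pseudocount (0.1), low-value filters, 3 scalings, the most abundant transcript, the variance model, the replicate block and leaving out each library.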

Additional observations from a re-analysis of the deposited data

How the results depend on the processing

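Of the 19 called members 11 kept direction and call under each of the 15 alternatives that gave a value for them, 1 was reversed, and 6 uncalled members were called under at least 1. Of 21 called genes of the other lists 11 kept theirs and 1 was reversed. The reversals were those of Bnip3l and of Mxi1, a MYC antagonist on the list of further hypoxia targets named here for this reversal. They came when only the most abundant transcript of a gene was used, and neither gene was called in that setting. Bnip3l then stood at -0.02 (limma adjusted p = 0.94) and Mxi1 at -0.49 (0.143), against 0.33 for Mxi1 by the sum. That setting called 1996 genes in place of 4094, 3 glycolysis members in place of 6 and 5 hypoxia members in place of 9. Without a filter on low values, which adjusts over 25641 genes, 3 glycolysis and 6 hypoxia members were called, and the calls of Gpi1, Pfkm, Aldoa, Bnip3, P4ha1 and P4ha2 ended. Leaving out 1 library gave 2882 to 3778 called genes, 3 to 8 glycolysis members and 6 to 8 hypoxia members. The pyruvate members stayed at 4 called in each setting.

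With the most abundant transcript 8 isozyme share differences (Limch1_OE minus Vector, percentage points) moved from those by the sum. Pfkl went from 1.18 to 2.24, Pfkm from 2.56 to 1.74, Aldoa from -0.514 to -0.593 and Aldoc from 0.514 to 0.593. Pdk1 went from -1.52 to -0.279, P4ha3 from 0.484 to 1.17, Bnip3 from 3.76 to 6.78 and Bnip3l from -3.76 to -6.78. The cause was not tested in any of these cases.

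With the replicate block 3808 genes, 8 glycolysis members, 4 pyruvate members and 8 hypoxia members were called, and the P4ha2 call ended (0.0574). Deviations of same-numbered libraries from their group means correlated at -0.00172, 0.0456 and 0.0592 for replicates 1, 2 and 3. Limch1_OE replicates 2 and 3 correlated best with the Vector library of their own number, and replicate 1 with Vector replicate 2 (0.00129). Correlations this small cannot tell whether same-numbered libraries share a culture or batch, so the pairing stays unknown.

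The depth is unknown, so the precision of each value is the spread over 3 libraries, and the 3 members below the filter (Ldhb, Slc16a3, Ankrd37) were not tested.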
